A study of Mus musculus with 4 samples.

Results

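The granins and the prohormone processing enzymes are the proteins that fill and equip the secretory granules of endocrine cells. The 10 genes Chga, Chgb, Scg2, Scg3, Scg5, Vgf, Pcsk1, Pcsk2, Cpe and Pcsk1n were taken by symbol from the deposited gene table, which held 22564 gene rows, and each matched 1 row. RNA sequencing had been run on islets of the pancreas from 129sv mice aged 2 weeks, in 2 libraries from knockout mice (KO, genotype written Ngn3Mettls KO) and 2 libraries from wild-type mice (WT), each from a pool of more than 400 islets. The labels do not name the genes or exons the knockout removed or what drove the deletion, and they tie no pool to a litter, so p-values measure the spread between these pools.

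Islet hormones are made as long precursors that are sorted into dense-core granules, where acidic pH and calcium let the granins condense around the cargo. The convertases Pcsk1 and Pcsk2 then cut the precursors after pairs of basic residues, and the carboxypeptidase Cpe trims those residues from the new ends. Beta cells use this route to turn proinsulin into insulin and C-peptide, and alpha cells use Pcsk2 to turn proglucagon into glucagon. Granins are themselves precursors of bioactive peptides and are widely used as markers of neuroendocrine cells.

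The islet identity of the pools showed in their most abundant endocrine transcripts. Ins2, an insulin gene, measured 49383 and 57631 FPKM in replicates 1 and 2 of KO, against 95147 and 68741 FPKM in replicates 1 and 2 of WT, where FPKM is fragments scaled to transcript length and library size. The summed gene counts, after the authors' scaling was divided out, came to 5132798 and 4057697 fragments in KO and 5232299 and 4347139 in WT. Gcg, Sst and Ppy were all present, and no marker that was found in the table for the cell types examined was at 0 in every library. In bulk islets, fewer cells of a type and less RNA per cell cannot be told apart.

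Several genes of this family are textbook targets of cAMP signalling through the cAMP response element, whose full letters are TGACGTCA, a palindrome that reads the same on both strands. Of the 8 members with an entry in RefSeq's promoter table for GRCm38.p6, 3 held it in the 250 bases before the start, namely Chgb, Scg2 and Pcsk1, against 1.55% of all 32851 promoters of that length. Chga held the variant TGACGTAA, also searched as TTACGTCA on the other strand, which 0.447% of all promoters held. The variant was searched for after the full element was not found there. The 4 stretches below are the 100 bases before each start as RefSeq places it, written 5′ to 3′ on the gene's own strand. The full element, or in Chga the variant, is in capitals.
Scg2: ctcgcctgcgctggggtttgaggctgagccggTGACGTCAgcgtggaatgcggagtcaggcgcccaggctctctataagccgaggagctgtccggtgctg
Chgb: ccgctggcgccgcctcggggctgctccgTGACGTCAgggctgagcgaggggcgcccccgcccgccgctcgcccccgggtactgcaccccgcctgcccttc
Pcsk1: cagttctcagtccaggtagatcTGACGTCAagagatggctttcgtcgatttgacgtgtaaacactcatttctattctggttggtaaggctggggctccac
Chga: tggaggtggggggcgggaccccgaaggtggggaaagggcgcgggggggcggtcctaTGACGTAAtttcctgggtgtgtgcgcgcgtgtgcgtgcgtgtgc

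In GRCm38 these stretches lie at chr1:79440027-79440126 on the minus strand for Scg2, chr2:132781542-132781641 on the plus strand for Chgb, chr13:75089757-75089856 on the plus strand for Pcsk1 and chr12:102554841-102554940 on the plus strand for Chga. The element, or in Chga the variant, began 68, 72, 78 and 44 bases before the start in the same order of genes. RefSeq's starts differ from those of the deposited spans given below, so the Chgb stretch lies inside the deposited span of Chgb and those of Scg2 and Pcsk1 run into theirs. These matches are a description of letters and no binding was measured. The promoters of Scg3, Scg5, Pcsk2 and Pcsk1n held neither form in this window, and Vgf and Cpe had no entry.

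Most of the 10 genes were abundant in the islets, and 9 of them averaged 187.7 FPKM or more. Summed over the 10 genes, the level was 6123 and 6702 FPKM in the KO libraries, replicate 1 first, and 6121 and 6286 FPKM in the WT libraries, which was 1.48% and 1.51% of all FPKM in KO and 1.32% and 1.41% in WT. The KO and WT sums overlapped, with the highest in KO replicate 2. Both KO shares of FPKM lay above both WT shares. The total under these shares includes Ins2, at 49383 and 57631 FPKM in KO and 95147 and 68741 FPKM in WT. The part of Ins2 in the shares was not tested. As a share of all counts the groups overlapped, at 1.80% and 1.95% in KO and 1.73% and 1.81% in WT. For the sums, the difference of the mean log2 values, KO minus WT, was 0.05 (exact permutation test over the 4 libraries, two-sided p = 0.667, where the smallest p that 2 against 2 libraries allow is 0.333), and it turned to -0.02 without KO replicate 2.

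By mean FPKM over the 4 libraries, Chga came first and was followed by Scg2, Pcsk2, Cpe, Scg3, Scg5, Chgb, Pcsk1n, Pcsk1 and Vgf. Chga ranked between 8 and 14 among all symbols of the table in the 4 libraries, and Vgf between 6187 and 7546. The FPKM ranges of neighbours in this order overlapped for Chga and Scg2, Scg2 and Chga exchanging places in KO replicate 2, and for Pcsk2 and Cpe, although Pcsk2 was above Cpe in each of the 4 libraries. Scg3 and Scg5 overlapped as well, with Scg5 the higher of them except in WT replicate 2. The ranges of Chgb and Pcsk1n met only at 263.0 and 265.4 FPKM, and those of Pcsk1n and Pcsk1 overlapped. The ranges did not overlap between Scg2 and Pcsk2, Cpe and Scg3, Scg5 and Chgb, or Pcsk1 and Vgf.

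**Figure D1:**
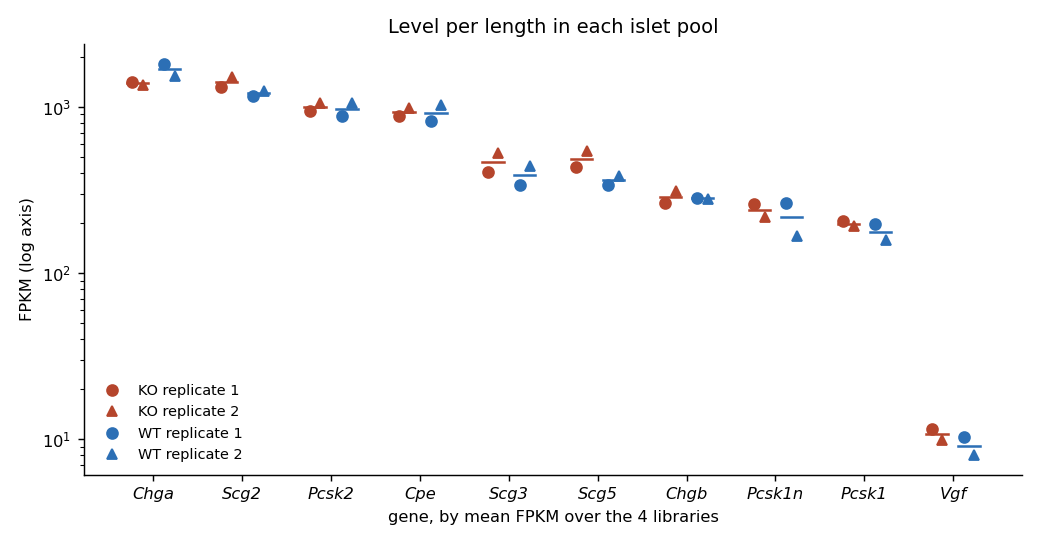
FPKM of each of the 10 genes on a log axis, with KO libraries in red left of WT libraries in blue, circles for replicate 1, triangles for replicate 2 and bars for the group means. The genes run from Chga at about 1530 FPKM to Vgf at 9.94 FPKM on average, and within each gene the red and blue points lie close together.

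Comparing KO with WT islets, 0 of the 10 genes passed edgeR's quasi-likelihood test at a Benjamini-Hochberg adjusted p under 0.05 over 12789 genes, where 0.227% of all genes tested did (0.133% higher and 0.0938% lower). At an unadjusted p under 0.05 there was 1 member, Scg5, beside 12.6% of all genes. DESeq2 also called 0 members, beside 0.825% of 16363 genes, a set that kept the genes with low counts. In limma on log2(FPKM + 1), 0 members and 0.0% of 12546 genes were called. The shares of the 3 tools are therefore over unlike sets of genes. At an unadjusted p under 0.05 DESeq2 had 3 members, Chga, Scg2 and Scg5, beside 5.66% of its 16363 genes. For limma there was 1, Scg5, beside 10.9% of its 12546 genes. The log2 fold change, KO minus WT, was positive for 9 members and negative for Chga, with a median of 0.16, against 6488 positive and 6301 negative and a median of 0.0046 over all genes tested. In CPM (counts scaled to a common library total after TMM normalisation), both KO libraries lay above both WT libraries in 2 members, beside 22.7% of all genes, and below them in 1, beside 22.3%, which is 3 of 10 without overlap beside 45.0%.

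**Figure D2:**
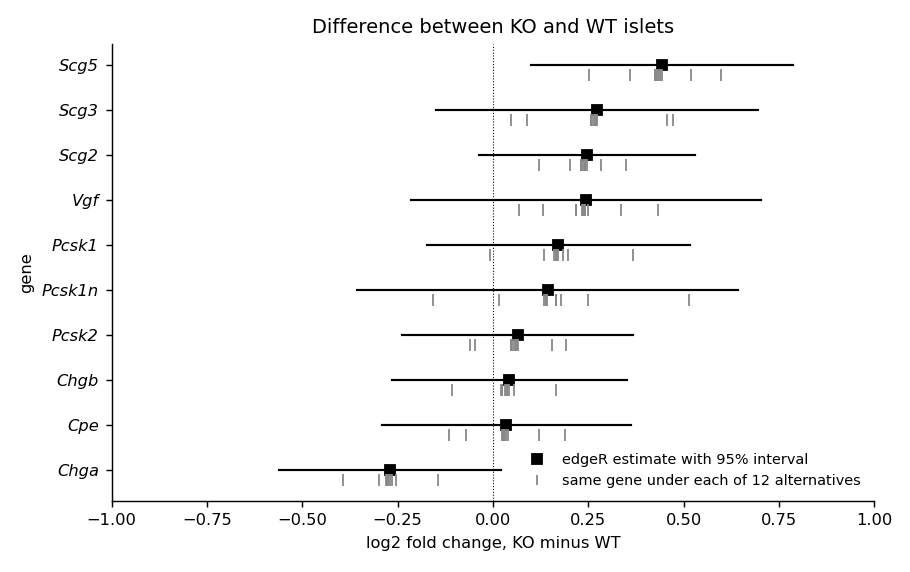
Log2 fold change of each gene, KO minus WT, as a black square with its 95% interval from the edgeR standard error, and in grey its value under each of 12 alternative settings or left-out libraries. Scg5 is at the top with 0.44 and Chga at the bottom with -0.27, and no interval reaches -1 or 1.

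The intervals bound what these pools could hide. Taken gene by gene at 95%, the lowest fold that any interval held was 0.678 for Chga and the highest was 1.72 for Scg5, KO over WT. A p that misses the threshold does not show that the levels were alike within those bounds.

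Among the granins, Scg5 had the largest difference. Scg5 (ENSMUSG00000023236, chromosome 2, 113776362 to 113829121, minus strand, mm10) encodes the small granin-like chaperone that binds the Pcsk2 precursor and lets it become active. It measured 434 and 540.5 FPKM in KO, replicate 1 first as throughout, and 340 and 382 FPKM in WT. Both KO libraries lay above both WT libraries, and KO replicate 2 stood highest. In CPM the means were 611 ± 106 in KO and 449 ± 32.6 in WT (SD, n = 2 each), which is 0.44 ± 0.15 SE on the log2 scale with a 95% interval of 0.10 to 0.79 (edgeR adjusted p = 0.297). The fold over all 4 libraries was 1.36, and its log2 value was 0.25 with KO replicate 2 left out and 0.60 with KO replicate 1 left out.

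Chga was the one member with a lower mean in KO. Chga (ENSMUSG00000021194, chromosome 12, 102554969 to 102565027, plus strand) encodes chromogranin A, a granule matrix protein and the precursor of pancreastatin. It measured 1413 and 1349 FPKM in KO and 1820 and 1538 FPKM in WT. Both KO libraries lay below both WT libraries, with WT replicate 1 the highest of the 4. The CPM means were 2924 ± 46.6 in KO and 3526 ± 451 in WT (SD, n = 2 each), and the log2 fold change was -0.27 ± 0.12 SE with a 95% interval of -0.56 to 0.02 (edgeR adjusted p = 0.427). It was -0.14 without WT replicate 1 and -0.39 without WT replicate 2.

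Scg2 (ENSMUSG00000050711, chromosome 1, 79434669 to 79440090, minus strand) encodes secretogranin II, the precursor of secretoneurin. It measured 1316 and 1513 FPKM in KO and 1168 and 1239.8 FPKM in WT, with both KO libraries above both WT libraries. The genotypes differed by a log2 fold change of 0.25 ± 0.12 SE with a 95% interval of -0.04 to 0.53 (edgeR adjusted p = 0.455). Without KO replicate 2 the log2 fold change was 0.12, and without KO replicate 1 it was 0.35.

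Scg3 (ENSMUSG00000032181, chromosome 9, 75643264 to 75683996, minus strand) encodes secretogranin III, which links chromogranin A aggregates to the cholesterol-rich granule membrane. It measured 404 and 528 FPKM in KO and 337 and 442 FPKM in WT, so the groups overlapped, and in each group replicate 2 was the higher. The difference of 0.27 ± 0.18 SE in log2 CPM (edgeR adjusted p = 0.579) was smaller than the gap of 0.42 between the KO libraries and that of 0.37 between the WT libraries on the log2 CPM scale. The difference was 0.05 without KO replicate 2, 0.09 without WT replicate 1, 0.46 without KO replicate 1 and 0.47 without WT replicate 2.

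Chgb and Vgf showed no separation of the groups. Chgb (ENSMUSG00000027350, chromosome 2, 132781278 to 132795079, plus strand), which encodes the second chromogranin of the granule matrix, measured 263 and 312 FPKM in KO and 285 and 279 FPKM in WT. The KO libraries lay on either side of the WT libraries. Its log2 fold change was 0.04 ± 0.13 SE with a 95% interval of -0.27 to 0.35 (edgeR adjusted p = 0.934), and -0.11 without KO replicate 2. Vgf (ENSMUSG00000037428, chromosome 5, 137030295 to 137033351, plus strand) encodes a granin-like precursor of several neuropeptides. It was by far the lowest member, at 11.6 and 9.89 FPKM in KO and 10.3 and 8.01 FPKM in WT, and rested on 178 and 118 fragments in KO and 157 and 101 in WT. Its log2 fold change was 0.24 ± 0.20 SE (edgeR adjusted p = 0.657), from 0.07 without WT replicate 2 to 0.43 without WT replicate 1.

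For the convertases and the carboxypeptidase the KO and WT libraries overlapped. Pcsk2 (ENSMUSG00000027419, chromosome 2, deposited span 143535476 to 143816285, plus strand) encodes the convertase that needs the Scg5 protein as its chaperone. It measured 937 and 1053 FPKM in KO and 876 and 1052 FPKM in WT, and the pair of libraries numbered 2 was level between the genotypes. Its log2 fold change was 0.06 ± 0.13 SE with a 95% interval of -0.24 to 0.37 (edgeR adjusted p = 0.884), and it turned to -0.05 without KO replicate 2 and -0.06 without WT replicate 1. Pcsk2 had the most fragments of the 10 genes, between 23486 and 26771 per library.

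Cpe (ENSMUSG00000037852, chromosome 8, 64592543 to 64693040, minus strand), the exopeptidase that removes basic residues after the convertases have cut, measured 881 and 989 FPKM in KO and 822 and 1021 FPKM in WT. The WT libraries lay on either side of the KO libraries. The estimated log2 fold change was 0.04 ± 0.14 SE (edgeR adjusted p = 0.951), and -0.07 without KO replicate 2 and -0.11 without WT replicate 1. Of all pairs of members, Pcsk2 and Cpe had the most alike profiles over the 4 libraries, with a root mean square distance of 0.0233 between their centred log2 CPM values, and Scg3 and Pcsk1n the least alike, at 0.4384.

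Pcsk1 (ENSMUSG00000021587, chromosome 13, 75089826 to 75132498, plus strand) encodes the convertase that makes the first cut in proinsulin. It measured 205 and 191 FPKM in KO and 197 and 157 FPKM in WT, and WT replicate 2 alone stood apart, below the other 3 libraries. On the log2 scale the fold change was 0.17 ± 0.15 SE with a 95% interval of -0.17 to 0.52 (edgeR adjusted p = 0.685). Without WT replicate 2 it was -0.01, and without WT replicate 1 it was 0.37.

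Pcsk1n (ENSMUSG00000039278, chromosome X, deposited span 7919822 to 7928607, plus strand) encodes proSAAS, a granin-like protein that inhibits the Pcsk1 convertase. It measured 259 and 217 FPKM in KO and 265 and 168 FPKM in WT. WT replicate 2 was again the lowest and WT replicate 1 the highest, and the gap between them, 0.68 on the log2 CPM scale, was the widest within a genotype among the 10 genes. The log2 fold change was 0.14 ± 0.21 SE with a 95% interval of -0.36 to 0.64 (edgeR adjusted p = 0.829), and it was -0.16 without WT replicate 2 and 0.51 without WT replicate 1.

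For Pcsk2 and Pcsk1n the deposited spans take in genes on the opposite strand in GENCODE M21. There, Pcsk2 itself starts at 143546156 and Pcsk1n itself ends at 7924410, so both deposited spans run beyond the gene. Pcsk2 overlaps the antisense transcripts Pcsk2os1 and Pcsk2os2, which are not used here, and Pcsk1n overlaps Eras, which was listed at 0 FPKM in every library. The library kit kept strand, per the labels' protocols, but how strand was used in counting was not stated in the labels, so reads from an antisense partner cannot be told apart.

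The spread within the groups was large for most of the members, as for most genes. In 7 of the 10, the larger gap between same-genotype libraries exceeded the difference of the genotype means in log2 CPM, as it did for 67.7% of the genes with counts in every library, and the exceptions were Chga, Scg2 and Scg5. Scg3, Scg5, Scg2, Pcsk2 and Cpe were each higher in replicate 2 than in replicate 1 in both genotypes. Chga, Vgf, Pcsk1 and Pcsk1n were each lower in replicate 2 in both genotypes, and Chgb was higher in KO replicate 2 and lower in WT replicate 2. The replicate numbers are names that the labels do not tie to a litter or a day.

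**Figure D3:**
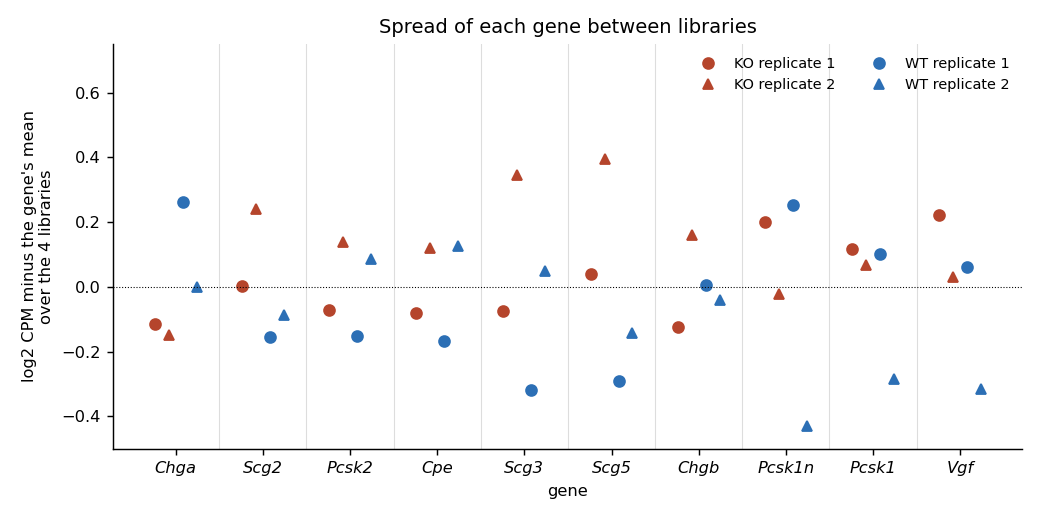
Log2 CPM of each gene minus its own mean over the 4 libraries, with KO in red left of WT in blue, circles for replicate 1 and triangles for replicate 2. Scg3 and Scg5 reach 0.35 and 0.40 in KO replicate 2, and Pcsk1n lies furthest below its mean, at -0.43, in WT replicate 2.

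Markers of islet and other cell types differed between the same libraries. Summed over 9 beta cell markers the level was 76860 and 83829 FPKM in KO and 124760.0 and 91782 FPKM in WT. That sum follows the hormone genes. Of the 9 markers, 8 had a negative log2 fold change, and edgeR called Mafa and Nkx6-1 lower, beside 0.0938% of all genes tested. The log2 fold change of Iapp was positive, at 0.53, with both KO libraries above both WT libraries. Gcg, the glucagon gene of alpha cells, measured 42862 and 53349.9 FPKM in KO and 36807 and 39828 FPKM in WT, both KO libraries above both WT libraries. Over 7 genes shared by all endocrine cells the level was 807 and 813 FPKM in KO and 775 and 916 FPKM in WT. Within that list 4 log2 fold changes were positive and 3 negative, with a median of 0.03. There edgeR called 0, beside 0.227% of all genes tested. Rfx6 (0.49), Scgn (-0.35) and Syp (-0.47) had an unadjusted p under 0.05 in edgeR, as did 12.6% of all genes tested. Acinar markers, which bear on exocrine carry-over, summed to 1864 and 3704 FPKM in KO and 4173 and 2786 FPKM in WT for the 5 found of 6, with WT replicate 1 and KO replicate 2 the highest. Immune markers summed to 90.2 and 68.1 FPKM in KO and 54.5 and 43.0 FPKM in WT, and all 4 had a positive log2 fold change, with a median of 0.72. Nerve and Schwann cell markers summed to 69.8 and 68.8 FPKM in KO and 45.3 and 54.7 FPKM in WT, and all 4 were positive as well, with a median of 0.17. In both lists the KO sums lay above the WT sums, while edgeR called 0 genes, beside 0.227% of all genes tested. C1qa and Th had an unadjusted p under 0.05, as did 12.6% of all genes tested. The 2 delta cell markers summed to 1710.1 and 2201 FPKM in KO and 2941 and 2242 FPKM in WT, with both KO sums below the WT sums. Nearly all of that sum was Sst, which overlapped in CPM, at 870 and 1130 in KO and 1491 and 1117 in WT. The log2 fold changes were -0.38 for Sst and 0.08 for Hhex, neither called by edgeR. The sums of the ductal, endothelial, mesenchymal and red blood cell markers overlapped between the groups. The part of these cell types in the values of the 10 genes was not tested.

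The partners of each enzyme were set against it per length. The ratio of Scg5 to Pcsk2, chaperone to enzyme, was 0.463 and 0.513 in KO and 0.388 and 0.363 in WT. Both KO libraries lay above both WT libraries. The difference of the mean log2 ratios was 0.38, KO minus WT (SD 0.11 in KO and 0.07 in WT, n = 2 each; exact permutation test, two-sided p = 0.333, the smallest the design allows), and it lay between 0.30 and 0.45 when each library was left out.

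The ratio of Pcsk1n to Pcsk1, inhibitor to enzyme, was 1.26 and 1.13 in KO and 1.34 and 1.06 in WT. The KO libraries lay inside the range of the WT libraries, and the difference of the mean log2 ratios was 0.0010 (exact permutation test, two-sided p = 1.0), from -0.17 without WT replicate 2 to 0.17 without WT replicate 1. Pcsk1 and Pcsk1n shared the low value of WT replicate 2.

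The ratio of Pcsk1 to Pcsk2 was 0.219 and 0.181 in KO and 0.225 and 0.150 in WT, so transcripts of Pcsk2 outnumbered those of Pcsk1 per length in every library. The groups overlapped, with a difference of the mean log2 ratios of 0.12 (exact permutation test, two-sided p = 1.0). It ranged from -0.18 without WT replicate 2 to 0.41 without WT replicate 1.

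**Figure D4:**
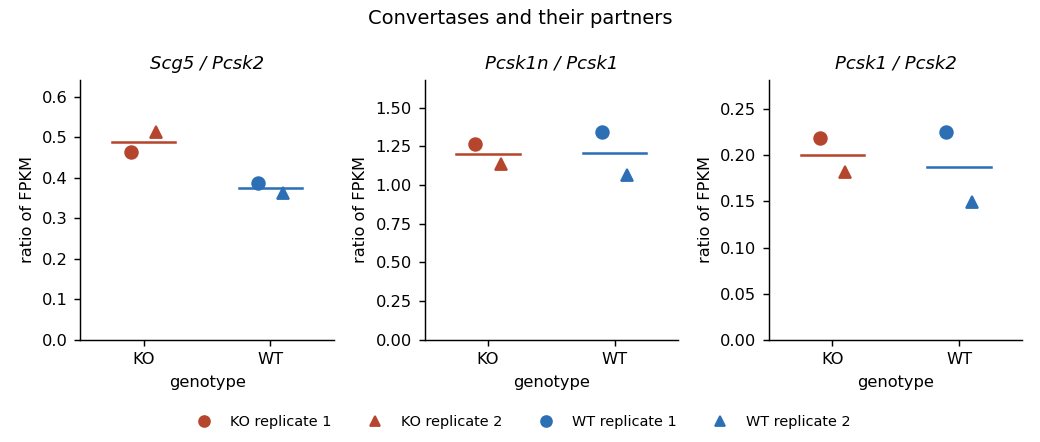
Ratio of FPKM in each library for Scg5 to Pcsk2, Pcsk1n to Pcsk1 and Pcsk1 to Pcsk2, with KO in red left of WT in blue and bars for the group means. The KO points of the first ratio, 0.463 and 0.513, lie above the WT points, 0.388 and 0.363, and the groups overlap in the other panels.

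The substrates that these enzymes act on differed in direction. Of 23 prohormone genes listed, 14 passed the filter on low counts. By edgeR 1 was called higher, Ppy, and 0 lower, beside 0.133% and 0.0938% of all genes tested. On the log2 scale 6 values lay above 0 and 8 below it, with a median of -0.14. At an unadjusted p under 0.05 in edgeR there were 5, Ppy, Iapp, Ins2, Gcg and Ghrl, beside 12.6% of all genes tested. Ghrl (0.99 ± 0.26 SE, edgeR adjusted p = 0.212) was chosen here after its values were seen. Ppy, the hormone of PP cells, measured 2755 and 2054 FPKM in KO and 977 and 920 FPKM in WT (1.37 ± 0.16 SE, edgeR adjusted p = 0.0348). Iapp, the amylin gene, whose precursor is cut by both convertases, measured 13290 and 14427.5 FPKM in KO and 9789 and 9758 FPKM in WT (0.53 ± 0.10 SE, edgeR adjusted p = 0.122). Ins2 had a log2 fold change of -0.58, Ins1 of -0.33, Gcg of 0.35 and Sst of -0.38, none of them called.

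Other enzymes of the processing route stood on both sides of 0. Of 16 listed, 15 were tested and 0 were called by edgeR, beside 0.227% of all genes tested. On the log2 scale 11 lay above 0 and 4 below it, around a median of 0.16. At an unadjusted p under 0.05 there were 2, Pam and Cpd, beside 12.6% of all genes tested. Cpd was chosen here after its values were seen. Pam, which amidates the ends of peptides such as amylin and pancreatic polypeptide, measured 382 and 412 FPKM in KO and 304 and 318 FPKM in WT (0.38 ± 0.12 SE, edgeR adjusted p = 0.269). Cpd, a carboxypeptidase of the trans-Golgi network related to Cpe, was at 0.42 ± 0.11 SE (edgeR adjusted p = 0.212). Ece1, an endothelin-converting enzyme, was at -0.25 and Ctsl, a cathepsin, at 0.11.

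Genes of granule formation and of the granule membrane had 0 of 18 called by edgeR, beside 0.227% of all genes tested. Their log2 fold changes were positive for 9 and negative for 9, with a median of -0.02. At an unadjusted p under 0.05 there were 3, Scgn, Hid1 and Baiap3, beside 12.6% of all genes tested. Resp18, a protein of the regulated secretory pathway and the highest of the list, measured 757 and 972 FPKM in KO and 707 and 940.1 FPKM in WT (0.09 ± 0.18 SE). Ptprn2, a transmembrane protein of dense-core granules, was at 0.18, and Scgn, the calcium sensor secretagogin, at -0.35 ± 0.11 SE (edgeR adjusted p = 0.264). Baiap3, which acts in dense-core vesicle traffic, had the lowest value of the list, -0.74 ± 0.18 SE (edgeR adjusted p = 0.199), and with Hid1 (-0.40) was chosen here after its values were seen.

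Transcription factors known to bind or set these genes had 0 of 12 called by edgeR, beside 0.227% of all genes tested. Their log2 fold changes were positive for 5 and negative for 7, with a median of -0.06. At an unadjusted p under 0.05 there were 2, beside 12.6% of all genes tested, both chosen here after their values were seen. They were Atf1 (-0.38), of the family that binds the cAMP response element, and Myt1 (0.43). The most abundant of the list were Pax6 (-0.23), Isl1 (0.22) and Neurod1 (0.05), factors of endocrine cell identity, and none of them passed. The other factors of the cAMP response element on the list were Creb1, at 15.9 and 17.6 FPKM in KO and 15.7 and 20.5 FPKM in WT, and Crem, at 15.5 and 13.6 FPKM in KO and 19.5 and 19.3 FPKM in WT. Rest, the repressor that keeps granin genes silent outside neuroendocrine cells, was low in every library, at 1.62 and 1.31 FPKM in KO and 2.36 and 1.28 FPKM in WT.

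**Figure D5:**
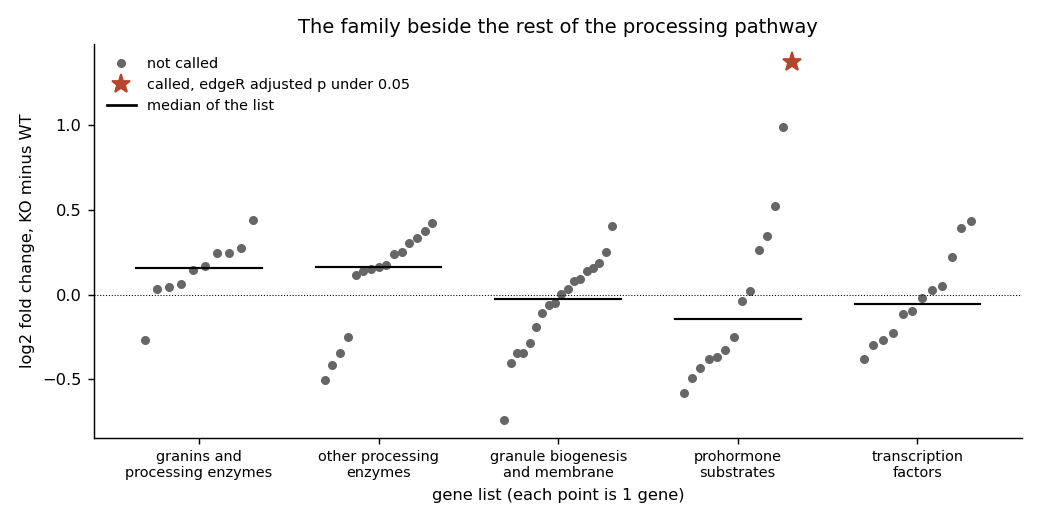
Log2 fold change, KO minus WT, of each tested gene in 5 lists, with the list's median as a bar and called genes as a star. The 10 granins and processing enzymes lie between -0.27 and 0.44, and the star is Ppy at 1.37.

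By the same root mean square distance, the genes outside the family whose centred log2 CPM lay nearest to the members' median profile over the 4 libraries were Elk4 (0.0119), Hipk3 (0.0120), Naa30 (0.0125), Cep85 (0.0140) and Rnf169 (0.0155), out of 8995 candidates with a mean FPKM of at least 5. With 4 libraries this likeness is a description only.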

How the data were processed

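The submitters' processing notes name the build mm10 and the tools Cufflinks, Cuffdiff, HISAT2 2.0.4 and cutadapt 1.9.3. The authors deposited 1 table with an FPKM and an estimated count per gene and library, per the file headers. The counts the authors deposited were scaled per library: 94.4% to 94.8% of values below 50 came out whole, within 0.1, when divided by a step of 0.901 to 1.16. The annotation and the counting settings were not given in the sources used here, and 1 empty line was not used. Starts in the table were read as counted from 0, since with 1 added 6 of the 10 matched GENCODE M21.

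Here, counts of the 79 repeated symbols were summed, rounded, filtered with filterByExpr (12789 genes), normalised with TMM and tested two-sided for genotype alone with edgeR 4.0.16 in R 4.3.3. limma 3.58.1 and DESeq2 1.42.0 were alternatives. Members, lists and alternatives were chosen with earlier results of these data known, and no list was tested as a set. The fits were tested on simulated data, where edgeR recovered 14.93% of the genes changed 1.5-fold, 73.13% at 2-fold and 95.45% at 4-fold. At 1.5-fold DESeq2 recovered 10.45% and limma 0%. Named from each list are called genes and the 3 with the highest mean FPKM, beside the members and 6 main hormones. Some results of the alpha cell marker list are not reported here.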

Additional observations from a re-analysis of the deposited data

How the results depend on the processing

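The count of members called was 0 under each of the 12 alternatives, and 113 of 120 member values kept their sign. The 7 that turned came from leaving out 1 library: Chgb at -0.1079, Pcsk2 at -0.0459 and Cpe at -0.0706 without KO replicate 2, Pcsk2 at -0.0612 and Cpe at -0.1149 without WT replicate 1, and Pcsk1 at -0.0081 and Pcsk1n at -0.1567 without WT replicate 2. With each library left out in turn, the highest values of those genes were 0.1667 for Chgb, 0.1908 for Pcsk2, 0.1903 for Cpe, 0.3668 for Pcsk1 and 0.5141 for Pcsk1n. The number of all genes called was 29, and it was 135 with DESeq2, 214 with a replicate block, 0 with limma on log2(FPKM + 1), on log2(FPKM + 0.1) and without its filter, and 10 to 245 with 1 library left out. The cause was not tested. limma on log2(FPKM + 1) had 1367 genes at an unadjusted p under 0.05. With the replicate block Scg5 had an edgeR adjusted p of 0.0675. Same-numbered libraries deviated from their group means with a correlation of 0.185 across genes, and with 2 pairs and no such label the libraries share only a number. With CPM in place of FPKM the log2 differences were 0.37 for Scg5 to Pcsk2, -0.0048 for Pcsk1n to Pcsk1, 0.12 for Pcsk1 to Pcsk2 and 0.07 for the sum. Vgf had the fewest fragments of the members, and 2 libraries per group limit the precision of all 10.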
